A study of Mus musculus with 5 samples.

Results

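Hoxc9 is a homeodomain transcription factor of the thoracic spinal cord, where Hox factors give motor neurons their identity along the body axis. Hox proteins bind short AT-rich sequences, often together with Pbx and Meis cofactors, and Hoxc9 is known for holding down Hox genes of more anterior segments in motor neurons. The regions described here are those with strong listed events of Flag-tagged Hoxc9 for which no other list of the study held an event. Events of 4 lists on the 19 autosomes and X were chained into regions wherever the gap to the previous event was 200 bp or less. Regions were kept if all their events came from the Flag Hoxc9 list and their highest event had 100 or more IP reads, the reads recovered with the antibody that the event caller assigned to an event. This left 5140 regions, out of 32586 in the Flag list alone, 43810 that held a Flag event and 58192 in all.

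All lists came from ChIP-seq in Ainv15 mouse embryonic stem cell lines differentiated toward motor neuron progenitors, with retinoic acid (1 µM) and a hedgehog agonist (0.5 µM) present from day 2. The Flag list (iFlag-Hoxc9) came from day 5 cells of a line with inducible Flag-tagged Hoxc9, given doxycycline and precipitated with anti-Flag. The V5 Hoxc9 list (iHoxc9-V5) came from day 5 cells of another line with inducible V5-tagged Hoxc9, given doxycycline and precipitated with anti-V5, and is 1 list for 2 libraries. The Olig2 lists came from day 4 cells of a line with inducible V5-tagged Olig2, a bHLH protein that marks the progenitors of motor neurons. For 1 of them no doxycycline was given and an antibody to the Olig2 protein was used, and for the other (iOlig2-V5) doxycycline and anti-V5. Hoxc9 was thus an induced, tagged protein in both Hoxc9 lists. Tag, antibody, line and number of libraries differ between those lists and cannot be told apart. A mock anti-V5 precipitation without induction was not analysed here.

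The lists held 49278 Flag Hoxc9, 11065 V5 Hoxc9, 15697 native Olig2 and 11067 V5 Olig2 events on these chromosomes. With 1 list per condition there is no replicate check, so no test was run and every value describes these lists. Regions are not replicates of a condition. Wilson 95% intervals are given for shares and cover counting error only. Library totals are not known, so where IP reads of 2 lists are given side by side, their ratio is not a difference in binding.

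Most of the 5140 regions lay not far above the minimum. Their median was 136 IP reads, the middle 50% ran from 114.9 to 179.3 (quartiles), and 60.7% had fewer than 150 (3118 regions). At the other end, 266 regions had 300 or more IP reads, 38 had 500 or more and 1 had over 1000. The regions were chosen by IP reads and by list membership, so these values are a description. At the threshold itself 67 regions had exactly 100 IP reads, among them chromosome 1 positions 15535031, 16217721, 44732047, 63770372 and 171263301. Just outside it, 5 regions each had 99.9, namely chr11:83196807, chr12:81916587, chr13:6537565, chr15:32876852 and chr2:75747963. Control reads ran from 0 to 8.3 at the 5 named regions inside the threshold and from 0 to 7.1 at the 5 outside it.

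Among all Flag regions with 100 or more IP reads, 45.2% had no event of another list (5140 of 11377), beside 84.6% of Flag regions under 100 IP reads and 74.4% of all Flag regions. The rule fixes these counts in part, through the choice of list and of IP reads. The share in the Flag list alone was lower in each higher band of IP reads, with 67.5% of regions from 100 to 110 IP reads (926 of 1372; 65.0 to 69.9), 46.4% from 150 to 200 (1085 of 2339; 44.4 to 48.4) and 18.1% from 300 to 500 (228 of 1258; 16.1 to 20.3). From 500 to 1000 IP reads 37 of 585 regions were in the Flag list alone (6.32%; 4.62 to 8.60). Among the 108 strongest Flag regions, those with 1000 or more IP reads, 1 was.

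**Figure D1:**
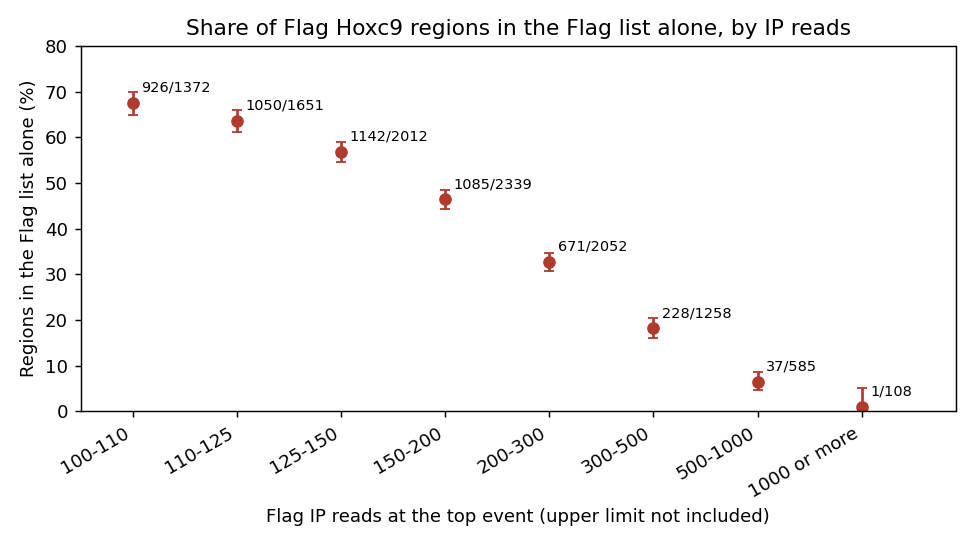
Share of Flag Hoxc9 regions with no event of another list (y axis, percent) in 8 bands of IP reads at the top event (x axis). Points are shares with Wilson 95% intervals, and the fractions give regions in the Flag list alone over all Flag regions of the band. The share runs from 67.5% in the lowest band to 1 of 108 regions in the highest.

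That 1 region lay on the X chromosome at 108810723, as a single event with 1686 IP reads and 9.9 control reads (deposited fold 171). It ranked 18 among all Flag events. The V5 Hoxc9 list had its nearest event 778 kb away, the native Olig2 list 1307 kb away and the V5 Olig2 list 1306 kb away. Of the 107 other Flag regions with 1000 or more IP reads, all held a V5 Hoxc9 event, with a median of 276.1 and a lowest value of 47 V5 IP reads. The lowest belonged to the region at 47632681 on chromosome 2, which had 1455 Flag IP reads. The lowest IP reads of any event in the V5 Hoxc9 list were 25. The X region thus had no listed V5 event at a Flag signal at which every other region had one, and its IP reads were 1.78 times those of the next region.

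The 2nd to 5th regions had similar IP reads to each other and lay more than 10 kb from any V5 Hoxc9 event. At 84416317 on chromosome 6 there were 945 IP and 10.4 control reads, with the nearest V5 Hoxc9 event at 49.3 kb. At 46806537 on the same chromosome there were 928.4 IP reads and control reads were listed at 0, with the nearest V5 Hoxc9 event at 152 kb and a V5 Olig2 event at 4.72 kb. The region at 98945407 on chromosome 5 (918 IP and 8.3 control reads) had its nearest V5 Hoxc9 event at 141 kb. That at 27556884 on chromosome 8 (892 IP and 2.1 control reads) had one at 13.8 kb. A further region of the 20 strongest lay on chromosome 8, at 27771634, with 695 IP and 10.4 control reads.

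Several of the 20 strongest regions stood beside V5 Hoxc9 events rather than away from them. The region at 115363571 on chromosome 2 (731 IP and 10.4 control reads) lay 681 bp from a V5 event with 55.7 IP reads, and the Flag list held a separate region at that V5 event with 571.2 IP reads. At 41472664 on chromosome 13 (717 IP and 22.8 control reads) the V5 event lay 794 bp away, in a region with 1072 Flag IP reads. V5 events lay 1.37 kb from chr3:130271714 (628.1 IP reads), 1.94 kb from chr7:86561561 (788) and 2.15 kb from chr7:56963191 (594). The last of these also had events of both Olig2 lists near it, at 1.98 kb (native) and 2.00 kb (V5). In all, 2 of the 20 had a V5 Hoxc9 event within 1 kb and 7 within 10 kb, beside 8.0% and 23.4% of all 5140 regions. None lay within 100 kb of 7 of the 20, and the median distance over all 5140 regions was 49.7 kb. These are small counts and a description.

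The remaining regions had 591 to 778 IP reads. They were chr14:24063919 (778), chr13:103641397 (727.7), chr5:81714778 (711), chr3:27765302 (616) and chr4:23268580 (612). Below them came chr2:158757835 (607.1), chr1:162067136 and chr16:27786736 (593 each) and chr4:36628047 (591, with control reads listed at 0). The 20 were spread over 12 chromosomes, each was a single event, and their control reads ran from 0 to 22.8 with a median of 8.3. Their ranks among Flag events ran from 18 to 484.

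**Figure D2:**
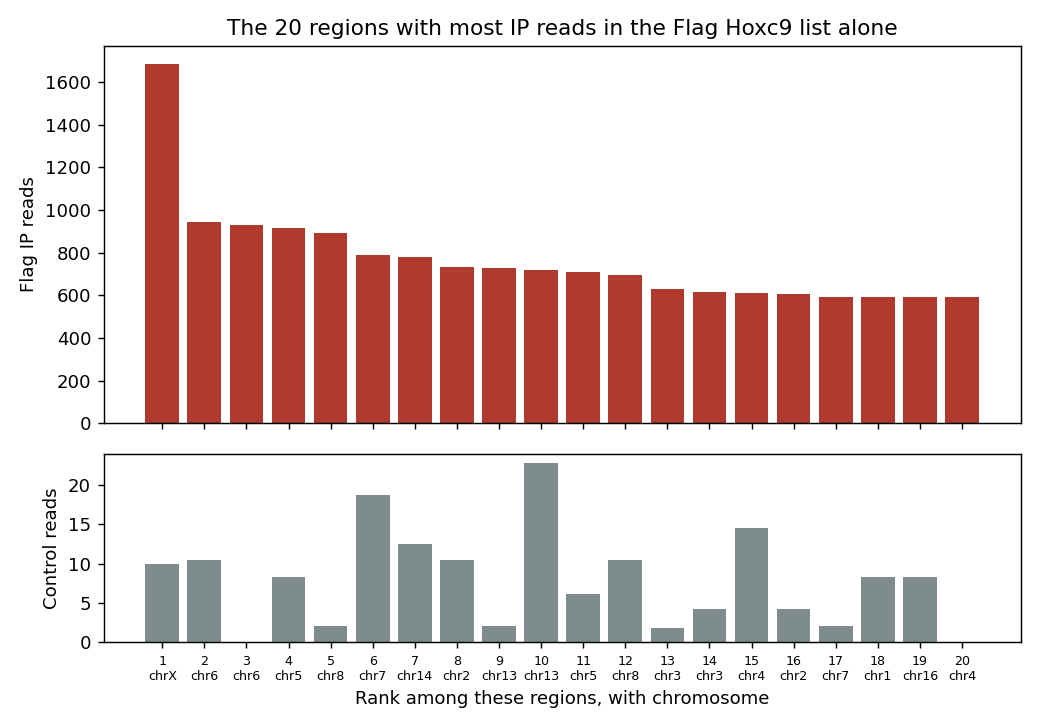
IP reads (upper panel) and control reads (lower panel, on its own scale) at the 20 regions with most IP reads in the Flag Hoxc9 list alone, 1 bar per region, ordered by IP reads and marked with the chromosome. The first, on X, has 1686 IP reads and the others 591 to 945, and control reads stay at or below 22.8.

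To show what V5 signal accompanies a given Flag signal, V5 IP reads were read at Flag regions that did hold a V5 Hoxc9 event. In the band of 100 to 110 Flag IP reads, 326 such regions had a median of 52 V5 IP reads and a lowest of 25.4, close to the lowest in the V5 list (25). From 200 to 300 Flag IP reads the median was 75.3 (1307 regions, lowest 25.1), and from 500 to 1000 it was 153 (543 regions, lowest 30.1). Regions without a listed V5 event are left out of these medians by construction. Whether the V5 library had reads below its listing threshold at the 5140 regions was not tested.

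**Figure D3:**
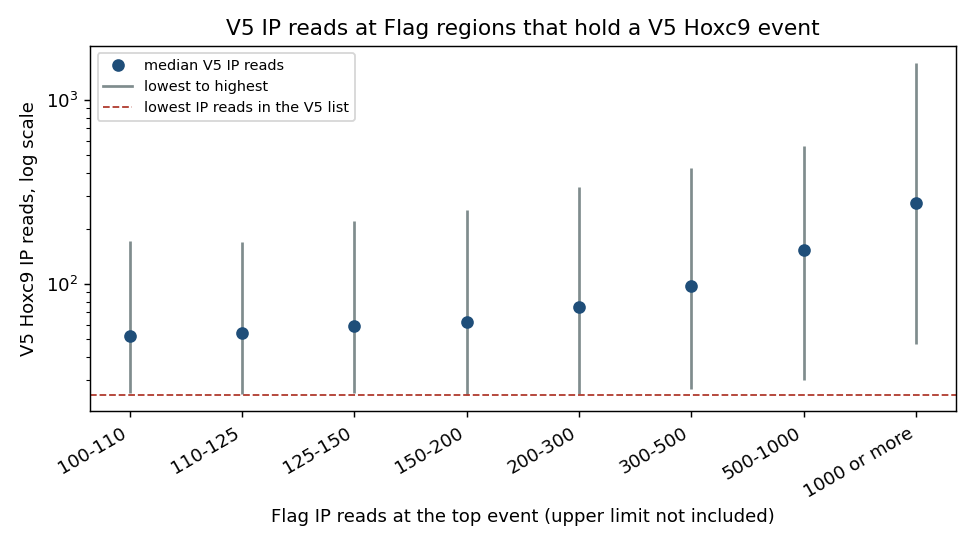
V5 Hoxc9 IP reads (y axis, log scale) at Flag regions that hold a V5 Hoxc9 event, in 8 bands of Flag IP reads (x axis). Points are medians, grey lines run from the lowest to the highest region, and the dashed line marks the lowest IP reads of the V5 list (25). The median runs from 52 in the lowest band to 276.1 in the highest.

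Most of the regions described here had no event of another list within 1 kb of their top event. The median distance from the top event to the nearest V5 Hoxc9 event was 49.7 kb, to the nearest native Olig2 event 56.3 kb and to the nearest V5 Olig2 event 85.9 kb. At regions in the Flag list alone under 100 IP reads these medians were larger, at 59.2, 60.9 and 92.8 kb. A V5 Hoxc9 event lay within 1 kb of 411 of the regions described here (8.0%; 7.29 to 8.77), beside 6.05% of all regions in the Flag list alone. Within 5 kb such an event lay near 892 (17.4%), beside 13.1% of regions in the Flag list alone under 100 IP reads. At 388 of those 411 regions (94.4%) the nearest V5 event was itself in a region with a Flag event. In 267 of the 388 that neighbouring region had more Flag IP reads than the region described here. No share over all V5 Hoxc9 events is set beside these counts, so they are a description. Flag regions with 100 or more IP reads, a V5 Hoxc9 event and no Olig2 event had a higher median in any case (207 IP reads beside 136). Within 1 kb of a top event, 580 regions had an event of at least 1 other list (11.3%), which leaves 4560 with none.

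Nearness to V5 Hoxc9 events was more frequent at the strongest regions. It was 7.76% at 100 to 150 IP reads (242 of 3118; 6.87 to 8.75), 7.52% at 150 to 300 (132 of 1756; 6.37 to 8.85) and 13.9% at 300 or more (37 of 266; 10.3 to 18.6). The closest V5 events lay just past the 200 bp limit, at most 205 bp from chr15:35443923, chr7:80545327, chr12:96622773, chr5:101522336 and chr10:119213993. These 5 regions had 114 to 169.3 Flag IP reads, and the V5 events beside them 55 to 127.9 V5 IP reads. Among the 100 strongest regions, the farthest from a V5 event were chr14:37221313 (835 kb), the X chromosome region above, chr9:24847406 (760 kb), chr4:36628047 (753 kb) and chr14:92030404 (640 kb).

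Olig2 events near these regions were about as frequent as near the 4318 equally thresholded Flag regions with a V5 Hoxc9 event and no Olig2 event. A native Olig2 event lay within 1 kb of 4.67% (4.13 to 5.28) of the former and 5.03% (4.41 to 5.72) of the latter, and a V5 Olig2 event near 2.82% (2.40 to 3.31) and 3.36% (2.86 to 3.94). Farther out the gap was wider, with native Olig2 events within 5 kb of 11.8% (10.9 to 12.7) and 13.9% (12.9 to 14.9). Neither class holds an Olig2 event within 200 bp, by construction.

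Control reads, which the rule did not use, are listed for each event, from a control not named in the sources used. Their median at the top event was 4.2 at the 5140 regions (quartiles 2.1 and 8.3), and they were listed at 0 in 11.3% (583 regions; 10.5 to 12.2), beside 19.8% of all Flag regions. Strong Flag regions with a V5 Hoxc9 and no Olig2 event had a median of 3.7 (order-statistic 95% interval 3.3 to 4.0) and 16.7% at 0 (15.6 to 17.9). Strong Flag regions with an Olig2 but no V5 Hoxc9 event had more control reads, with a median of 8.6 (8.3 to 10.3) and 1.93% at 0. Those with both had a median of 6.2. The regions in the Flag list alone thus had slightly more control reads than those shared with V5 Hoxc9 alone and fewer than those shared with Olig2.

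IP reads differ between these classes, so control reads were also set side by side within bands of IP reads. From 100 to 110 IP reads the median was 4.2 in the Flag list alone and 2.1 with V5 Hoxc9 and no Olig2 event. From 150 to 200 it was 4.3 and 2.15. From 200 to 300 the medians nearly met, at 4.2 and 4.15, and from 500 to 1000 they were 8.3 and 4.2, over 37 and 404 regions. Control reads listed at 0 were less frequent in the Flag list alone in each of these bands, for example 15.7% beside 23.8% in the lowest. The part of control reads in the absence from the V5 list was not tested.

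These differences rest on few reads. Among the 4316 regions with a single event, 83.2% had control reads within 0.1 of a whole multiple of 2.076 (3591 regions), beside 80.6% of all Flag regions with a single Flag event, so listed control values mostly step by that amount. In those regions the median was 2 steps and the upper quartile 4, and 494 were at 0, 675 at 1 and 743 at 2 steps. If a step is 1 sequenced control read, a median difference of 2.1 is a single read, and the deposited fold of an individual region is loosely set.

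**Figure D4:**
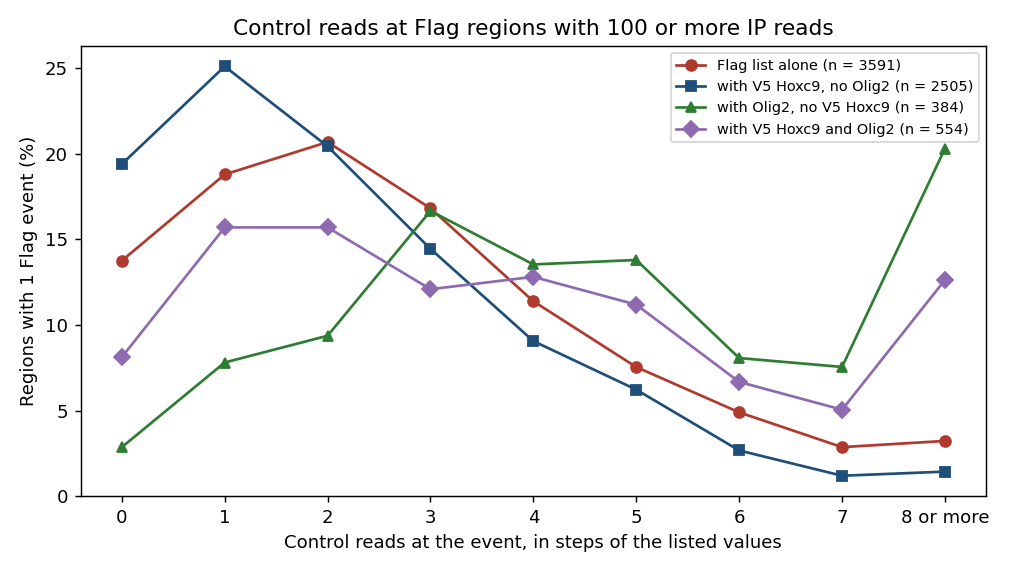
Control reads at Flag regions with 100 or more IP reads and a single Flag event, as whole steps of 2.076 (x axis), with the percent of regions of each class at each step (y axis). Regions off the steps are left out. In the Flag list alone 13.8% are at 0 steps, beside 19.4% of regions with V5 Hoxc9 and no Olig2 event, and the regions with Olig2 and no V5 Hoxc9 event lie farthest to the right.

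The deposited fold of IP over control contains IP reads and is given as a description. It was 10 or more at 94.2% of the regions (4840), beside 79.7% of all Flag regions, with a median of 31.8 and a lowest value of 3.1. Most Flag regions have under 100 IP reads, so that difference follows in part from the minimum. Strong Flag regions with V5 Hoxc9 and no Olig2 event had 99.4% and a higher median, 71.25. Those with Olig2 and no V5 Hoxc9 event had 75.9% and a median of 16, and those with both 95.9% and 41.05. The regions with control reads listed at 0 and most IP reads were, after the 2 already named on chromosomes 6 and 4, chr1:143897126 (435 IP reads), chr6:76639993 (408.2) and chr5:47430427 (405). The most control reads were at 166430395 on the X chromosome, with 52.3 beside 170.5 IP reads and a fold of 3.3. It was followed by 35426415 on chromosome 8 (40.7 control and 266.2 IP reads), which had a native Olig2 event 234 bp and a V5 Hoxc9 event 556 bp away. At chr18:54982848, chr16:42575873 and chr11:113082436 the folds were 3.6, 3.6 and 3.1. The region on chromosome 8 had a fold of 6.5, so these 5 had folds of 3.1 to 6.5, beside a median of 31.8.

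A single event made up 84.0% of the regions (4316; 82.9 to 84.9), while 740 held 2 events, 74 held 3 and 10 held 4. The share was higher, 95.2%, at regions in the Flag list alone under 100 IP reads. It was 77.6% (74.3 to 80.6) at strong Flag regions with Olig2 and no V5 Hoxc9 event, whose median of 134 IP reads was similar. With both V5 Hoxc9 and Olig2 events it was 58.2%. Single events were less frequent among strong Flag regions with V5 Hoxc9 and no Olig2 event (68.7%; 67.3 to 70.03), whose IP reads were higher (median 207). In classes shared with another list, an event of that list can join Flag events more than 200 bp apart. Lower shares of single events in those classes can thus follow in part from the rule. Where there were several Flag events, the median gap between neighbours was 124.5 bp over 918 gaps in the Flag list alone. It was 121 bp over 1566 gaps with V5 Hoxc9 and no Olig2 event. The chaining gap of 200 bp limits these gaps in the Flag list alone. With V5 Hoxc9, a V5 event between 2 Flag events can join a wider gap, so the 2 medians are not under the same limit. The shortest gap was 35 bp in both classes, and the medians show little beyond the rule. In regions of 2 events the weaker had a median of 54.3% of the IP reads of the stronger.

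Of the regions with 4 events, that with most summed IP reads (588.1) spanned 69789232 to 69789533 on chromosome 9. Its events, in order, had 118, 273.6, 144.6 and 51.9 IP reads, with control reads of 0, 1, 1.3 and 3.9. The next, on chromosome 2 from 178289825 to 178290277, had 114.5, 102.4, 176.1 and 50 IP reads. On chromosome 17 from 58922919 to 58923384 the 4 events had 108.5, 156.5, 119.7 and 34.3 IP reads, and control reads were listed at 0 at each. The others of the 5 ran from 8050066 to 8050394 on chromosome 3 (summed IP reads 368) and from 77264197 to 77264602 on chromosome 16 (352). These 5 regions were picked for number of events and then summed IP reads, so their reads are divided over neighbouring events by construction.

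The spacing of the regions is a description, since no other class of Flag regions was measured beside it. The median distance between a region and the nearest other such region was 92.5 kb. Another lay within 1 kb of 6.42% (330; 5.78 to 7.12), within 10 kb of 16.0% (821; 15.0 to 17.0) and within 50 kb of 37.0%. Whether they lay closer together than other Flag regions was not tested. The densest 50 kb stretch was on chromosome 15, where 7 regions lay between 94841983 and 94885940 with 103.2 to 350.9 IP reads. The same stretch held 5 V5 Hoxc9 events and 1 native Olig2 event. On chromosome 13, 6 regions lay between 58792732 and 58820782, with 109.7 to 256.4 IP reads and 1 V5 Hoxc9 event among them.

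On chromosome 2, 5 regions from 115314534 to 115363571 ended at the region with 731 IP reads named above, and 4 V5 Hoxc9 events lay in the same stretch. On chromosome 14 the 5 regions from 61552118 to 61573341 had 156.4, 160.4, 204.7, 373.4 and 345.6 IP reads, with 1 V5 Hoxc9 event between them. On chromosome 18 the 5 regions from 83803972 to 83825661 had 330.9, 108.1, 179, 164 and 105 IP reads, also with 1 V5 Hoxc9 event. Each of these 5 stretches, picked for density, held at least 1 V5 Hoxc9 event, and 4 of them held no Olig2 event of either list. Over all 5140 regions, 50.1% had a V5 Hoxc9 event within 50 kb, 46.9% a native Olig2 event and 37.4% a V5 Olig2 event. These shares cover 50 kb on either side of a top event. The stretch counts cover only the span from first to last region, so the 2 are not like measures.

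Every chromosome examined held regions in the Flag list alone, from 62 on X to 420 on chromosome 2. As a share of Flag regions with 100 or more IP reads they ran on the autosomes from 40.6% on chromosome 16 (190 of 468; 36.2 to 45.1) to 49.3% on chromosome 3 (341 of 692; 45.6 to 53.0), around 45.1% for all autosomes. On X the share was 54.4% (62 of 114; 45.2 to 63.2). From 100 to 150 IP reads it was 75% on X (45 of 60; 62.8 to 84.2) and 61.8% on autosomes (60.4 to 63.1), and at 150 or more 31.5% (17 of 54; 20.7 to 44.7) and 31.9%. The higher share on X was thus listed in the weaker of these regions, over small numbers and with intervals that overlap those of the autosomes. The intervals also overlap over all bands (44.2 to 46.0 on autosomes). The split at 150 was chosen after seeing the data, and whether X differs, or why, was not tested. Median IP reads were 123.1 on X and 136 on autosomes, and median control reads 2.1 and 4.2, so both were lower on X.

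**Figure D5:**
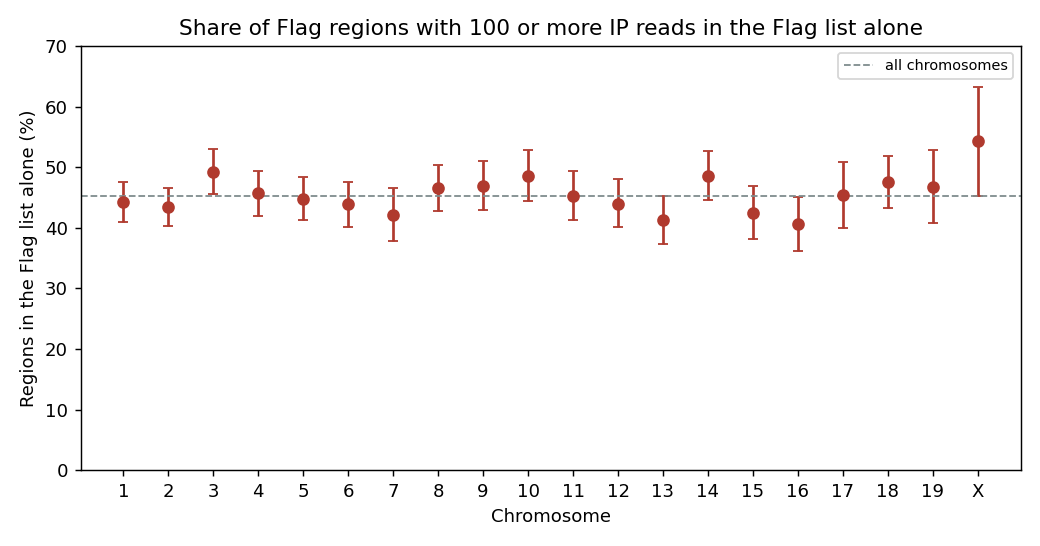
Share of Flag regions with 100 or more IP reads that are in the Flag list alone (y axis, percent), for each chromosome (x axis). Points are shares with Wilson 95% intervals and the dashed line is the share over all chromosomes (45.2%). Autosomes lie between 40.6% and 49.3%, and X at 54.4% has the widest interval.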

How the data were processed

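Reads were aligned with Bowtie 0.12.5 to mm9, per the submitters' processing notes. For the event caller, its version, settings and control are not given in the sources used. Each table deposited by the authors gives, per event, IP and control reads as estimated counts that are often fractional. They also hold the fold of IP over control as deposited by the authors (very large, for example 9999.9, where control reads were at or near 0), the −log10 of p and q, and 2 more columns with scores from the authors. Whether control reads were scaled is not stated. The −log10 and score columns and the interval lists were not used for any result.

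Events were chained and classed by the rule given in the report, and each region was described by its Flag event with most IP reads. Positions are in mm9, as the event tables give them. Chaining, classes and distances were tested on simulated lists with planted answers. The regions and all summaries were chosen with earlier results of these data known. Regions were named by a rule: the 20 with most IP reads, 5 on each side of the threshold, and 5 each by number of events, by control reads at 0 and highest, by nearest and farthest V5 Hoxc9 event (the latter among the top 100) and by regions within 50 kb. The bands of IP reads and the split by X were chosen after seeing the data. Alternatives were other gaps, IP minimums, summed IP reads, events with a fold of 10 or more, events poor in control reads, and a 1 kb distance from other lists. Sequence and genes at the regions were not analysed here, since the reference tables at hand are in another build. The scripts ran in Python 3.11.15 with matplotlib 3.10.9, SciPy 1.17.1, pandas 2.3.3 and numpy 2.4.6.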

Additional observations from a re-analysis of the deposited data

Results flagged for a closer look

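The Flag Hoxc9 list also held 10 events outside the 19 autosomes and X, which the regions do not include. The strongest had 480 IP reads beside 10.4 control reads, and it was the only 1 of the 10 with 100 or more IP reads. It appears here because its signal lies in data that the comparisons did not use and exceeds the control reads at the same place.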

How the results depend on the processing

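No paired analysis was possible because each condition has 1 list. Each of 8 results was recomputed under 8 alternatives, and 23 of the 64 values stayed within the interval of the main value or, for the number of regions, within 1.5 times it. The others follow. With 50 or more IP reads there were 16437 regions, 63.7% of strong Flag regions were in the Flag list alone, 7.02% had a V5 Hoxc9 event within 1 kb, 89.3% were single events and 32.2% had another within 10 kb. With 200 or more IP reads the values were 937, 23.4%, 9.39%, 80.6% and 5.87%, with a control median of 4.4 and 0.854% on X. With only events whose control reads did not exceed the median of their list they were 2243, 51.2%, 5.22%, 85.3% and 10.97%, with a control median of 1.6 by construction, 1.78% on X and an Olig2 event near 2.36%. Keeping only events with a fold of 10 or more, in the other lists too, gave 57.7% in the Flag list alone and 6.39% near V5. The control median was then 4.3, and 19.8% had another region within 10 kb. A gap of 100 bp gave 48.0% in the Flag list alone, 14.1% near V5, 7.92% near Olig2, 95.1% single events and 22.7% within 10 kb. A gap of 500 bp gave 43.1%, 2.5%, 1.96%, 72.2% and 11.1%, the nearest events being chained in by construction. Asking for no event of another list within 1000 bp of any event of a region, an alternative added after seeing the data, left 4558 regions (40.1% of strong Flag regions), with 0% near V5 and 0% near Olig2 by construction, and 14.1% within 10 kb. Summed IP reads gave 46.5%, 73.8% single events and 17.5% within 10 kb. The planned motif result needed the mm9 sequence and was not run. The cause of the other shifts was not tested. Control reads of few steps and the unknown library totals limit how finely regions can be compared.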
